A study of Homo sapiens with 18 samples.

Results

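The genes studied here carry the names of translation initiation factors, the proteins that bring the initiator tRNA, the mRNA and the ribosomal subunits together at the start codon. Not every gene named this way need act in initiation. They were taken by name, as every gene beginning EIF1 to EIF6 that was not an eIF2α kinase (EIF2AK) or an antisense RNA and did not end in P and a number, and whose mean level reached 10 normalized counts in both deposited tables. The ending removes numbered pseudogenes and also the repressors EIF4EBP1, EIF4EBP2 and EIF4EBP3. EIF4EBP1 and EIF4EBP2 are treated below with the pathway genes, and EIF4EBP3, with group means of 0.336 to 1.33 normalized counts, was not tested. The rule itself did not use any difference between groups, though it was set with earlier results of these data known. Of the 26485 genes listed, 60 had a name beginning EIF1 to EIF6, 48 of these passed the name rule and 41 also passed the level filter. The 41 members were 3 subunits of eIF2, 2 factors beside eIF2 (EIF2A and EIF2D), 5 subunits of eIF2B, 12 of eIF3, 10 genes of the eIF4 group and 9 others.

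PANC-1 is an established epithelial line from a human pancreatic ductal carcinoma. In the run labelled 1 the cells received a control siRNA or either of the siRNAs labelled PKR siRNA 1 and 2. In the run labelled 2 they received DMSO, C16 at 400 nM or C16 at 800 nM. RNA was taken after 72 h in each case, with 3 libraries per group. The labels do not say what a run was. An siRNA directs cleavage of the mRNA it matches, here that of the kinase PKR (gene EIF2AK2), whereas C16 is a small molecule inhibitor of the PKR kinase in the solvent DMSO. All 18 libraries came from the same line and differed only by these labelled treatments. The 400 nM dose is given by the sample labels alone. Every siRNA library belonged to run 1 and every C16 or DMSO library to run 2, so the run cannot be told apart from the kind of treatment, and each table was compared only within itself. No source used here states that the libraries of a group were separate cultures, so the SDs and p-values measure the spread between libraries.

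PKR is activated by double-stranded RNA and phosphorylates the α subunit of eIF2, the GTP-binding complex that carries the initiator tRNA to the small ribosomal subunit. Phosphorylated eIF2 holds on to eIF2B, the exchange factor that reloads eIF2 with GTP, and so slows initiation on most mRNAs. The eIF3 complex is the scaffold on the small subunit, the eIF4 proteins bind the cap and unwind the mRNA, eIF1 and eIF1A watch over start codon choice, eIF5 and eIF5B act at GTP hydrolysis and subunit joining, eIF5A eases peptide bond formation at difficult sequences, and eIF6 keeps the large subunit apart until it is needed. The libraries report mRNA levels, not the phosphorylation, amount or activity of these proteins. In a bulk sample, fewer cells with an mRNA and less of it per cell cannot be told apart.

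Promoter sequences are shown for 3 members whose mRNA the results below turn on: EIF2S1, the substrate subunit of PKR, EIF5A2, with the largest fall, and EIF6, which changed in all 4 comparisons with a control. They come from RefSeq (build GRCh38.p14), run 5′ to 3′ on the strand of the gene and end just before the gene start in the deposited tables. The pieces are chr14:67360078-67360316 (plus strand) for EIF2S1, chr3:170908638-170908887 (minus strand) for EIF5A2 and chr20:35284817-35285022 (minus strand) for EIF6. Capitals mark a match to any of 5 motifs searched on both strands, the E-box CACGTG, the NRF1 core CGCATGCG, the ETS motif CCGGAAG, the amino acid response element TGATGNAA and the cyclic AMP response element TGACGTCA.
EIF2S1: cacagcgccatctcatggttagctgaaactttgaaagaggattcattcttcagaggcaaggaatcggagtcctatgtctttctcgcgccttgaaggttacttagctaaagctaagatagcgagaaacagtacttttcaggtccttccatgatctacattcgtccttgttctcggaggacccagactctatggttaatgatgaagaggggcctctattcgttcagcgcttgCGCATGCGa
EIF5A2: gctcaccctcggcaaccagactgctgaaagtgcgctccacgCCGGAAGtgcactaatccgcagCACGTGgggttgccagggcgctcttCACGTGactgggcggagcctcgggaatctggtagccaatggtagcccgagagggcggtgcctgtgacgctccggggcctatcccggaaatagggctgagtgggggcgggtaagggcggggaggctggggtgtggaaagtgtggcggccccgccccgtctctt
EIF6: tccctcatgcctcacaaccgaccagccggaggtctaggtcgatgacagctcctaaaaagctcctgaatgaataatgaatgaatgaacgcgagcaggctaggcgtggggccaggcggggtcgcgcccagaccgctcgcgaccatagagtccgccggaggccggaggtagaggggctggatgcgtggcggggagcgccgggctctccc
The capitals mark the NRF1 core in EIF2S1, and the ETS motif followed by 2 E-boxes in EIF5A2, while no motif lay in the EIF6 piece as printed. RefSeq promoters were found for 35 of the 41 members, and EIF2S2 was among those without one. In the 250 bases before the RefSeq start, the E-box was held by 10 of these 35 genes, EIF1B, EIF2B3, EIF3F, EIF3K, EIF4A3, EIF4B, EIF4E, EIF4G1, EIF4H and EIF5A2. Counted over promoters it was in 20.8% of the 48 listed for members, 8.74% of the 11241 of genes tested in both tables and 6.34% of all 35116. The ETS motif was held by 8 genes, EIF2A, EIF2B1, EIF3I, EIF3M, EIF4E2, EIF5A, EIF5A2 and EIF6, in EIF6 outside the printed piece, for which 44 bases within the gene and another listed start were left out. It was in 18.8% of the member promoters and 15.5% of those of the tested genes, and the NRF1 core in 4.17% and 3.18%. Neither of the other motifs was in a member promoter, against 1.54% and 2.71% of those of tested genes. A match describes the letters and not a bound factor.

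Between 1512940 and 1873906 reads were assigned to genes in a library of the siRNA table. For the C16 table these were 894145 to 1474308 reads, which limits precision at low counts. Only EIF1B among the members had a table mean under 30 normalized counts (23.5 in the C16 table). The targeted gene EIF2AK2 had 93.5 to 103 normalized counts under control siRNA, 9.65 to 13.6 with PKR siRNA 1 and 7.96 to 9.40 with PKR siRNA 2, a fall in every knockdown library. In the C16 table it ranged from 39.2 to 54.1. Of 6 epithelial markers, KRT8, KRT18 and KRT19 were at 519.5 to 5104.9 normalized counts, whereas EPCAM was at 9.40 to 120.3, CDH1 at 9.07 to 61.7 and KRT7 at 0.761 to 20.5. PTPRC, CD3E, DCN and INS were at 0 throughout, PECAM1, CDH5 and PRSS1 reached at most 1.07, and COL1A1 was at 21.8 to 161.

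Levels between genes were compared per kilobase of exon. In control siRNA libraries the members spanned 14.3 normalized counts per kilobase for EIF4ENIF1, the 4E transporter, to 1752.5 for EIF3K, a small eIF3 subunit, and with DMSO 10.2 to 1360.9 for the same genes. All 12 measured eIF3 subunits lay above 130 per kilobase with control siRNA, the lowest being EIF3J at 131. The eIF2B subunits lay between 31.4 (EIF2B3) and 71.9 (EIF2B1) per kilobase, and the eIF2 subunits between 39.4 (EIF2S1) and 139.9 (EIF2S2). EIF4G2, a relative of the scaffold eIF4G that works without the cap-binding protein, stood at 1353 per kilobase, and EIF1 led the remaining factors at 550.9.

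PKR siRNA 1 raised 13 and lowered 12 of the 41 members at an adjusted p under 0.05 (limma with Benjamini-Hochberg adjustment over all genes tested), where 21.1% of all genes tested were raised and 23.9% lowered. Fold changes are given on the log2 scale with their standard error (SE). A fold change over 1.5 as well was reached by 6 members (14.6%), against 21.1% of all genes. The median log2 fold change of the members was -0.03 and the median size of change 0.24, against 0.301 for all genes. The changed share was thus higher than that of all genes, 61.0% against 45.0%, while the changes were of smaller size. Here and below, expression level was not matched between the members and all genes. With the minimum mean raised to 30, 50.8% of all genes passed and 19.6% passed both thresholds. In 28 members (68.3%) the 3 knockdown libraries all lay on the same side of the 3 controls, against 51.7% of all genes.

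PKR siRNA 2 raised 4 members and lowered 13, where 22.1% of all genes were raised and 25.2% lowered. Both thresholds were passed by 3 members (7.32%), all lower, against 23.5% of all genes. The median log2 fold change was -0.11 and the median size 0.13, against 0.311 for all genes. The groups did not overlap for 21 members, 51.2% of them, where all genes gave 54.3%.

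C16 at 800 nM raised 19 members and lowered 3, where 22.3% of all genes were raised and 22.6% lowered. Both thresholds were passed by 5 members (12.2%), 4 higher and 1 lower, against 25.7% of all genes. The median log2 fold change was 0.20, with a median size of 0.23 against 0.343. At 400 nM, 7 members were raised and 2 lowered, where 14.6% of all genes were raised and 11.9% lowered, and 1 member passed both thresholds against 12.5% of all genes. The median at 400 nM was 0.07 and the median size 0.15, against 0.247 for all genes. Groups did not overlap for 27 members (65.9%) at 800 nM and 17 (41.5%) at 400 nM, where all genes gave 51.8% and 39.6%.

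The plot of fold changes by complex shows all 41 members in the 4 comparisons with a control. By number of comparisons passed, 4 members passed in none (EIF3G, EIF4E, EIF4ENIF1 and EIF5), 13 in 1, 15 in 2, 6 in 3 and 3 in all 4 (EIF6, EIF4G1 and EIF4A2). This tally was not made over all genes, so whether it is unusual was not tested. Of all genes, 45.0% passed with PKR siRNA 1, 47.3% with PKR siRNA 2, 44.9% at 800 nM and 26.5% at 400 nM. The siRNA comparisons share the control siRNA libraries and the C16 comparisons share the DMSO libraries.

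**Figure D1:**
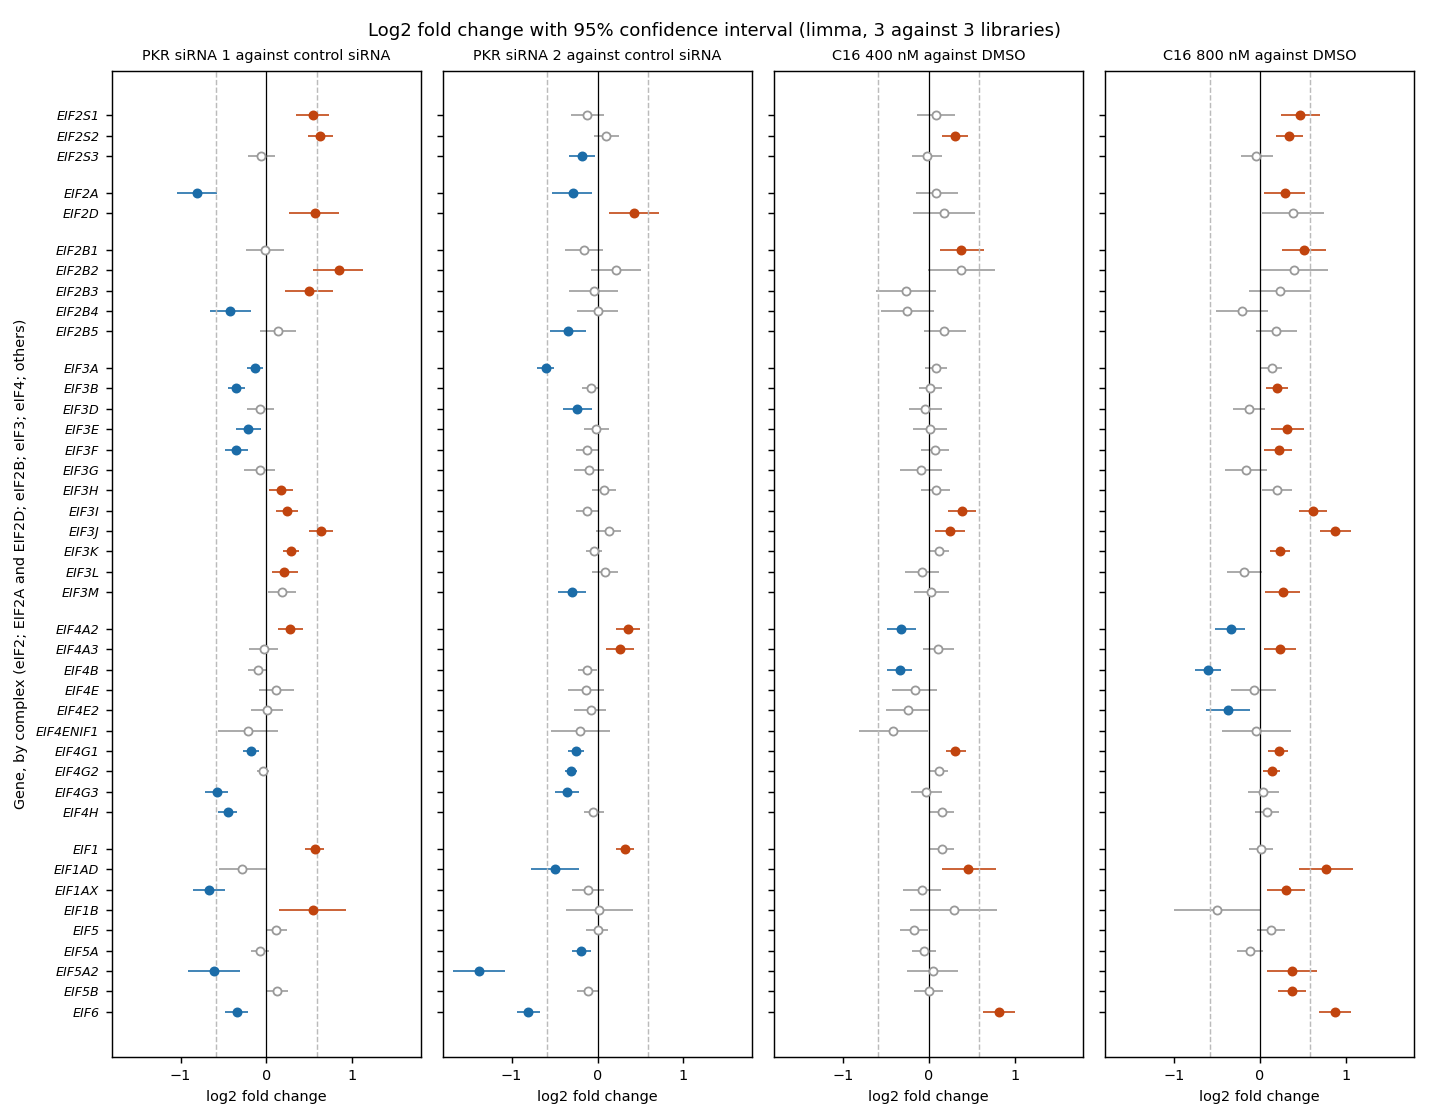
Log2 fold change of each of the 41 members (rows, by complex) in the 4 comparisons with a control (panels), as limma estimates with 95% confidence intervals from 3 libraries against 3. Orange and blue points passed an adjusted p of 0.05 as higher or lower, open points did not, and dashed lines mark a fold change of 1.5. The 800 nM panel leans to the right, with 19 members higher and 3 lower, and the PKR siRNA 2 panel to the left, with 4 and 13.

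The eIF2 complex moved unevenly. With PKR siRNA 1 and with 800 nM C16 the mRNAs of its α and β subunits rose and that of the γ subunit did not pass the test. With PKR siRNA 2 neither α nor β passed and γ fell slightly. EIF2S1 (chr14:67360317-67386516, plus strand) encodes eIF2α, on which PKR places its phosphate. Its normalized counts were 156, 146 and 190.5 under control siRNA, 237, 217 and 259.6 under PKR siRNA 1 and 135, 169 and 149 under PKR siRNA 2. Every PKR siRNA 1 library lay above every control, while the PKR siRNA 2 libraries overlapped the controls. The log2 fold change was 0.54 (SE 0.10, adjusted p = 4.57e-06) under PKR siRNA 1 and -0.12 (SE 0.10, adjusted p = 0.343) under PKR siRNA 2. Among the run 2 libraries EIF2S1 had 119.5, 135 and 114 with DMSO, 111, 133 and 149 with 400 nM and 154, 183 and 175 with 800 nM. Only the 800 nM libraries stood clear of DMSO, with a log2 fold change of 0.47 (SE 0.11, adjusted p = 0.00042), whereas 400 nM gave 0.08 (SE 0.11, adjusted p = 0.623).

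EIF2S2 (chr20:34088309-34112279, minus strand) encodes eIF2β, which contacts eIF5 and eIF2B. It was at 367, 315 and 407 normalized counts under control siRNA, 578, 560.5 and 532 under PKR siRNA 1 and 392, 356 and 418 under PKR siRNA 2. The rise with PKR siRNA 1, 0.62 (SE 0.07, adjusted p = 1.84e-11) on the log2 scale, passed 1.5-fold, and PKR siRNA 2 gave 0.10 (SE 0.07, adjusted p = 0.24). With DMSO the values were 347, 315 and 302, with 400 nM C16 399, 402 and 394 and with 800 nM 404, 407 and 413. Every treated library lay above every DMSO library, with log2 fold changes of 0.31 (SE 0.08, adjusted p = 0.00142) and 0.34 (SE 0.08, adjusted p = 0.000179). Without the third control siRNA library the value for PKR siRNA 2 passed the test, at 0.19.

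EIF2S3 (chrX:24054948-24078811, plus strand) encodes eIF2γ, the subunit that binds GTP and the initiator tRNA. Its normalized counts were 372, 328 and 349.8 under control siRNA, 358, 294 and 361 under PKR siRNA 1 and 306, 314 and 305 under PKR siRNA 2. The PKR siRNA 2 libraries lay under the controls, having decreased by 0.18 (SE 0.08, adjusted p = 0.0471) on the log2 scale, and PKR siRNA 1 gave -0.06 (SE 0.08, adjusted p = 0.583). This call for PKR siRNA 2 failed without the first control library (-0.13), the third (-0.18), or the first (-0.17), the second (-0.19) or the third (-0.17) of PKR siRNA 2, and with edgeR or DESeq2 (-0.16 by each). In the C16 table the values 214, 229 and 260.4 with DMSO overlapped 239, 214 and 238 with 400 nM and 226, 242 and 215 with 800 nM. The log2 fold change at 800 nM was -0.04, with a 95% confidence interval of -0.22 to 0.15.

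Of the 5 eIF2B subunits, PKR siRNA 1 raised EIF2B2 and EIF2B3 and lowered EIF2B4, PKR siRNA 2 lowered EIF2B5, and both doses of C16 raised EIF2B1. No subunit passed in both siRNA comparisons. The α, β and δ subunits (EIF2B1, EIF2B2 and EIF2B4) form the regulatory core that senses phosphorylated eIF2, and γ and ε (EIF2B3 and EIF2B5) carry the exchange activity.

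EIF2B1 (chr12:123621023-123633776, minus strand) had 143, 112 and 149 normalized counts under control siRNA, 123, 142 and 129 under PKR siRNA 1 and 117, 117 and 124 under PKR siRNA 2, all overlapping. With DMSO it had 72.9, 72.4 and 65.5, with 400 nM C16 85.1, 92.3 and 98.9 and with 800 nM 107, 97.5 and 98.3, so each treated library lay above each DMSO library. The log2 fold changes were 0.38 (SE 0.13, adjusted p = 0.0189) at 400 nM and 0.52 (SE 0.13, adjusted p = 0.000696) at 800 nM. The 400 nM call failed without the third DMSO library (0.34) or the third 400 nM library (0.33), and with DESeq2. PKR siRNA 2 gave -0.16 (adjusted p = 0.239), which passed without the second control library, at -0.29.

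EIF2B2 (chr14:75002909-75009591, plus strand) had 56.5, 50.5 and 49.3 normalized counts under control siRNA, 78.9, 102 and 102 under PKR siRNA 1 and 67.6, 54.7 and 59.2 under PKR siRNA 2. It was the most raised member with PKR siRNA 1, by a log2 fold change of 0.84 (SE 0.15, adjusted p = 1.67e-06), and all 3 of those libraries lay above the others. PKR siRNA 2 gave 0.21 (SE 0.15, adjusted p = 0.242). The DMSO values were 30.1, 27.6 and 29.7, against 37.2, 41.5 and 36.2 with 400 nM and 34.3, 35.3 and 47.7 with 800 nM C16. Both doses lay above DMSO without overlap, yet the log2 fold changes of 0.38 (SE 0.20, adjusted p = 0.149) and 0.40 (SE 0.20, adjusted p = 0.0927) did not pass at these low counts.

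EIF2B3 (chr1:44850522-44986722, minus strand) was at 62.6, 82.7 and 59.7 under control siRNA, 88.9, 86.2 and 116 under PKR siRNA 1 and 68.6, 59.0 and 69.6 under PKR siRNA 2. Its rise with PKR siRNA 1 was 0.50 (SE 0.14, adjusted p = 0.0026) and failed without the third PKR siRNA 1 library (0.37), the highest of the 3. With DMSO the values 68.0, 41.9 and 51.0 overlapped 34.0, 56.5 and 43.6 with 400 nM and 63.5, 67.0 and 55.3 with 800 nM, and neither dose passed. EIF2B4 (chr2:27364352-27370457, minus strand) went the other way with PKR siRNA 1, from 103, 112 and 115 under control siRNA to 88.9, 75.3 and 81.1, a log2 fold change of -0.42 (SE 0.12, adjusted p = 0.0025). With PKR siRNA 2 it had 102, 113 and 114, a log2 fold change of 0.00 with a 95% confidence interval of -0.24 to 0.24. In the C16 table EIF2B4 had 64.1, 66.7 and 63.2 with DMSO, 56.4, 53.0 and 53.2 with 400 nM and 49.4, 56.1 and 63.0 with 800 nM, lower without overlap at both doses but past the threshold at neither, with -0.25 (adjusted p = 0.233) and -0.21 (adjusted p = 0.277).

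EIF2B5 (chr3:184135022-184145311, plus strand), the catalytic subunit, had 176, 144 and 149.8 under control siRNA, 154, 190.5 and 171 under PKR siRNA 1 and 120.4, 118 and 129.8 under PKR siRNA 2. It fell with PKR siRNA 2 by 0.34 (SE 0.10, adjusted p = 0.00393) on the log2 scale, all 3 libraries lying under the controls, and the call failed without the first control library (-0.26), the highest. PKR siRNA 1 gave 0.14 (adjusted p = 0.294). The C16 table held 92.3, 81.9 and 99.0 with DMSO, 106, 103 and 101 with 400 nM and 104, 104 and 104 with 800 nM, with log2 fold changes of 0.18 (adjusted p = 0.269) and 0.19 (adjusted p = 0.195).

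**Figure D2:**
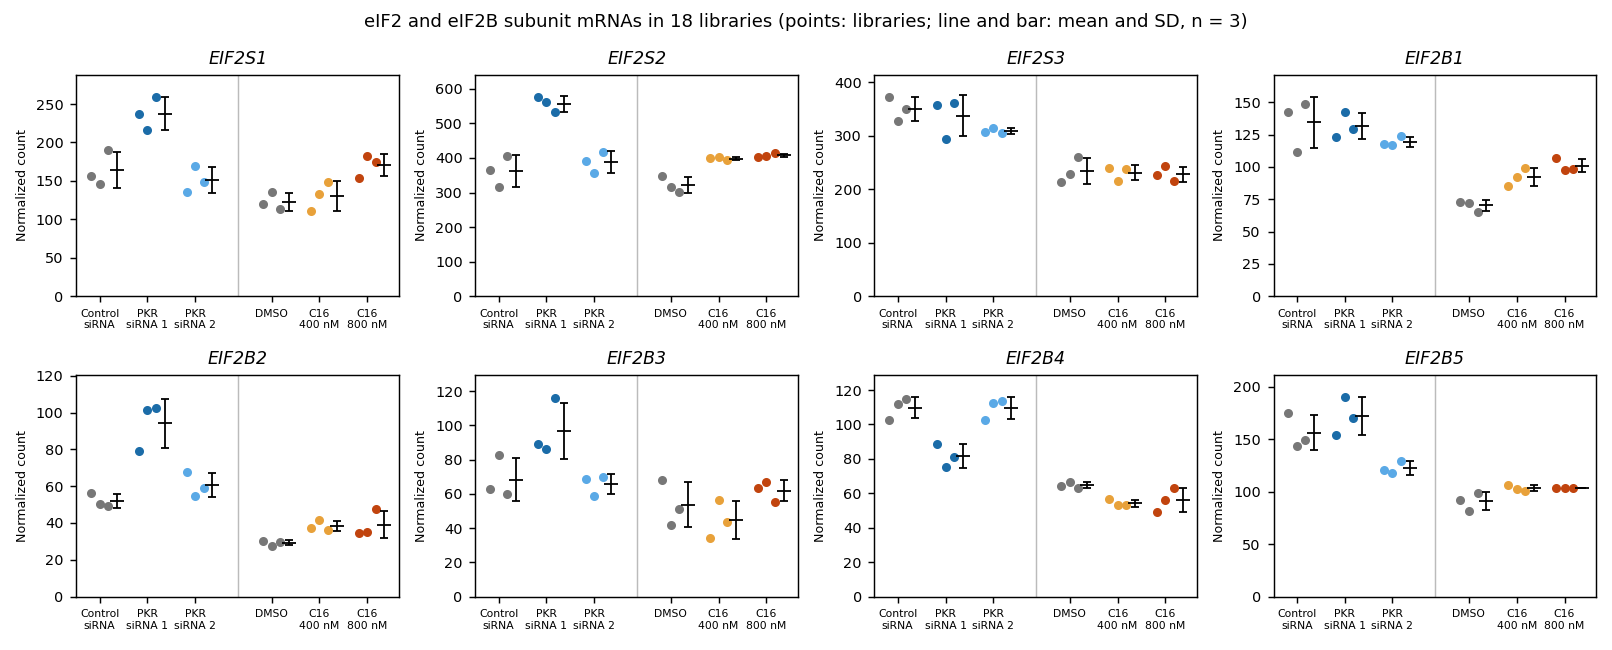
Normalized counts (vertical axes, from 0) of the 3 eIF2 and 5 eIF2B subunit genes in each library (points), by group (horizontal axes), with the mean and SD of 3 libraries beside them and a grey line between the separately normalized tables. Within the siRNA table EIF2S1, EIF2S2 and EIF2B2 stand highest with PKR siRNA 1, where EIF2B4 stands lowest. Within the C16 table EIF2B1 rises from about 70.2 with DMSO to 101 with 800 nM C16.

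A pair of other proteins can deliver an initiator tRNA without the eIF2 complex, EIF2A and EIF2D, and their mRNAs moved apart with the siRNAs. EIF2A (chr3:150546787-150586016, plus strand) had 200.2, 146 and 186 under control siRNA, 122, 112 and 73.3 under PKR siRNA 1 and 139, 146 and 145 under PKR siRNA 2. Every PKR siRNA 1 library and, by a narrow margin, every PKR siRNA 2 library lay under the controls. The log2 fold changes were -0.81 (SE 0.12, adjusted p = 2.26e-08) and -0.29 (SE 0.12, adjusted p = 0.035). With DMSO it had 91.3, 97.1 and 95.2, with 400 nM C16 95.7, 93.4 and 115 and with 800 nM 113, 105 and 131, a change of 0.29 (SE 0.12, adjusted p = 0.0473) at 800 nM. With PKR siRNA 2 the call for EIF2A failed without the first (-0.20) or the third (-0.25) control library or without any of the 3 PKR siRNA 2 libraries (-0.27, -0.31 and -0.30). At 800 nM it failed without any of the 3 DMSO libraries (0.26, 0.31 and 0.29) or the first (0.31) or the third (0.20) treated library. EIF2D rose with both siRNAs, by 0.56 (SE 0.15, adjusted p = 0.00114) and 0.42 (SE 0.15, adjusted p = 0.0143), the latter call failing without the second control library (0.34), and did not pass with C16. By DESeq2 neither EIF2A nor EIF2D passed with PKR siRNA 2 or with 800 nM C16.

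Within eIF3, PKR siRNA 1 raised 5 of 12 measured subunits and lowered 4, PKR siRNA 2 raised 0 and lowered 3, and C16 raised 7 at 800 nM and 2 at 400 nM and lowered 0 at either dose. Each of these counts of 0 by limma was also 0 at an unadjusted p under 0.05 and by edgeR and DESeq2. Among all genes PKR siRNA 1 raised 21.1% and lowered 23.9%, PKR siRNA 2 22.1% and 25.2%, 800 nM C16 22.3% and 22.6%, and 400 nM 14.6% and 11.9%. The eIF3 shares furthest from these were the 58.3% raised and 0% lowered by 800 nM and the 0% raised by PKR siRNA 2, while the 25.0% lowered by PKR siRNA 2 lay near the share of all genes. The median log2 fold changes over the 12 were 0.05, -0.09, 0.21 and 0.05. Only EIF3J, EIF3A and EIF3I passed 1.5-fold in a comparison with a control. EIF3J (chr15:44537068-44562803, plus strand), a loosely held subunit that sits near the mRNA entry channel, had 337, 301 and 371 under control siRNA, 548, 499 and 516 under PKR siRNA 1 and 363, 346 and 390.3 under PKR siRNA 2. It rose with PKR siRNA 1, all libraries above the controls, by 0.63 (SE 0.07, adjusted p = 6.92e-12), whereas PKR siRNA 2 gave 0.13 (SE 0.07, adjusted p = 0.138), which passed without the third control library (0.20). In the C16 table its counts were 214, 215 and 196 with DMSO, 209.5, 257 and 279 with 400 nM and 375, 398 and 377 with 800 nM. At 800 nM every library stood above DMSO and 400 nM alike, and the log2 fold change of 0.88 (SE 0.09, adjusted p = 2.55e-12) was the largest rise of any member with C16. The 400 nM libraries overlapped DMSO, and their change of 0.25 (SE 0.09, adjusted p = 0.0347) failed without the second (0.27) or the third (0.20) DMSO library or the second (0.22) or the third (0.16) 400 nM library. EIF3J shares 4.22% of its exon bases with SPG11 on the opposite strand.

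EIF3A (chr10:119035029-119080822, minus strand), the largest subunit and a scaffold of the complex, had 1618, 1638 and 1718 under control siRNA, 1526, 1462 and 1554 under PKR siRNA 1 and 1079, 1079 and 1116 under PKR siRNA 2. All 6 knockdown libraries lay under the 3 controls, and the PKR siRNA 2 libraries lay lowest, with a log2 fold change of -0.60 (SE 0.05, adjusted p = 1.33e-18). The change with PKR siRNA 1 was -0.13 (SE 0.05, adjusted p = 0.0201) and failed without the third control library or the second PKR siRNA 1 library (-0.11 in each case). With C16 it had 1059, 1009 and 1042 at 400 nM and 1061, 1044 and 1114 at 800 nM, against 910.4, 977 and 1044 with DMSO. The value at 800 nM, 0.14 (adjusted p = 0.062), passed without the third DMSO library, at 0.19.

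EIF3I (chr1:32222370-32231604, plus strand), a propeller-shaped subunit that binds eIF3b, had 550.4, 489 and 494 under control siRNA, 609, 619 and 584 under PKR siRNA 1 and 455, 461 and 493 under PKR siRNA 2. Its rise with PKR siRNA 1 was 0.24 (SE 0.06, adjusted p = 0.00125), and PKR siRNA 2 gave -0.12 (SE 0.06, adjusted p = 0.114). The DMSO libraries were nearly equal at 256, 258 and 259, and 400 nM C16 gave 314, 341 and 358 and 800 nM 399, 413 and 378. The 3 groups stepped upward without overlap, by 0.39 (SE 0.08, adjusted p = 0.000154) and 0.62 (SE 0.08, adjusted p = 3.32e-09) against DMSO. The other 9 measured subunits stayed within 1.5-fold in every comparison with a control, from -0.35 for EIF3B to 0.29 for EIF3K with PKR siRNA 1 and up to 0.32 for EIF3E at 800 nM, the last of which failed without the third DMSO library (0.17). EIF3M shares 34.6% and EIF3G 10.3% of exon bases with genes on the opposite strand, and whether the authors' counting used strand is not stated, so their counts are uncertain.

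In the eIF4 group of 10 genes, PKR siRNA 1 raised 1 and lowered 3, PKR siRNA 2 raised 2 and lowered 3, 800 nM C16 raised 3 and lowered 3, and 400 nM raised 1 and lowered 2. With shares over all genes of 21.1% raised and 23.9% lowered, 22.1% and 25.2%, 22.3% and 22.6%, and 14.6% and 11.9% in the same order, these counts were near those of the background. EIF4E, the cap-binding protein, passed in none of them, with log2 fold changes from -0.16 at 400 nM to 0.11 under PKR siRNA 1. EIF4B (chr12:53006258-53042209, plus strand), which stimulates the helicase eIF4A, was the only member of the 41 lowered past 1.5-fold by C16. Its counts were 528, 579 and 537 with DMSO, 436, 422 and 446 with 400 nM and 369, 366 and 347 with 800 nM. The 3 groups descended without overlap, with log2 fold changes of -0.33 (SE 0.07, adjusted p = 0.000336) and -0.60 (SE 0.07, adjusted p = 6.39e-10). With some library left out the change at 800 nM was -0.56, under 1.5-fold. In the siRNA table EIF4B had 892, 854 and 827 under control siRNA, 776, 827 and 793 under PKR siRNA 1 and 819, 783 and 766 under PKR siRNA 2, changes of -0.10 (adjusted p = 0.13) and -0.12 (adjusted p = 0.0687) that did not pass.

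EIF4G1, the scaffold that joins the cap-binding protein to the helicase, passed in all 4 comparisons at small size. Its normalized counts were 2421, 2620.2 and 2356 under control siRNA, 2086, 2227 and 2213 under PKR siRNA 1 and 2032, 2075 and 2119 under PKR siRNA 2, and 1193, 1197 and 1327 with DMSO, 1493, 1554 and 1562 at 400 nM and 1410.1, 1425 and 1484 at 800 nM. Neither siRNA group overlapped the controls and neither C16 group overlapped DMSO. EIF4G1 fell with the siRNAs, by 0.18 (SE 0.04, adjusted p = 0.000478) and 0.25 (SE 0.04, adjusted p = 2.08e-06) on the log2 scale, and rose with C16, by 0.31 (SE 0.06, adjusted p = 2.18e-05) at 400 nM and 0.22 (SE 0.06, adjusted p = 0.00144) at 800 nM. The helicase gene EIF4A2 had 321, 361 and 365 under control siRNA, 439, 394 and 435 under PKR siRNA 1, 443, 436 and 451 under PKR siRNA 2, 278, 292 and 275 with DMSO, 228, 231 and 218 at 400 nM and 215, 212 and 239.5 at 800 nM, again with each treated group clear of its control. Its changes had the opposite signs, 0.28 (adjusted p = 0.000711) and 0.35 (adjusted p = 2.32e-05) with the siRNAs and -0.32 (adjusted p = 0.00392) and -0.34 (adjusted p = 0.000966) with 400 and 800 nM C16. EIF4G3, another scaffold gene, fell with both siRNAs, by 0.58 (SE 0.07, adjusted p = 1.91e-11) and 0.35 (SE 0.07, adjusted p = 1.01e-05) on the log2 scale, and gave -0.03 and 0.04 with 400 and 800 nM C16.

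Among the 9 remaining factors, those of start codon choice differed between treatments. EIF1, a guard of start codon choice, rose with both siRNAs, by 0.56 (SE 0.05, adjusted p = 1.53e-14) and 0.32 (SE 0.05, adjusted p = 8.61e-07), and gave 0.15 (adjusted p = 0.113) and 0.01 (adjusted p = 0.913) with 400 and 800 nM C16. EIF1AX (chrX:20124518-20141848, minus strand), the gene of eIF1A, had 217, 220.2 and 222 under control siRNA, 127, 131 and 156 under PKR siRNA 1 and 219, 179 and 212 under PKR siRNA 2. It fell with PKR siRNA 1 by 0.67 (SE 0.10, adjusted p = 7.71e-09) on the log2 scale, without overlap, whereas PKR siRNA 2 overlapped the controls at -0.11 (adjusted p = 0.333). With C16 it had 131, 145 and 116 with DMSO, 133, 107 and 129.8 at 400 nM and 157, 156 and 169.8 at 800 nM. The 800 nM rise of 0.31 (SE 0.11, adjusted p = 0.0203) failed without the third DMSO library (0.22) or the third 800 nM library (0.27).

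EIF1AD (chr11:65996545-66002166, minus strand), named for its eIF1A-like domain, had 85.2, 78.4 and 113 under control siRNA, 73.3, 70.7 and 81.1 under PKR siRNA 1 and 67.6, 59.0 and 66.8 under PKR siRNA 2. It fell with PKR siRNA 2, -0.49 (SE 0.14, adjusted p = 0.00216), a call that failed without the third control library (-0.34), the highest. PKR siRNA 1 gave -0.28 (adjusted p = 0.0966), which passed without the second control library, at -0.38. Among the run 2 libraries it had 51.5, 35.2 and 57.1 with DMSO, 69.1, 68.0 and 58.5 at 400 nM and 89.8, 79.2 and 74.4 at 800 nM, with the groups in rising order and no overlap. The change at 800 nM was 0.77 (SE 0.16, adjusted p = 5.18e-05). At 400 nM it was 0.46 (SE 0.16, adjusted p = 0.023) and failed without the second DMSO library (0.26), the lowest, or the first (0.42) or the second (0.43) 400 nM library. The 400 nM call also failed with DESeq2. EIF1AD shares 3.01% of its exon bases with BANF1 on the opposite strand.

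EIF5A2 (chr3:170888415-170908637, minus strand), a lesser used gene for eIF5A, held the largest fall of any member. Its normalized counts were 106, 111 and 108 under control siRNA, 70.0, 53.5 and 93.6 under PKR siRNA 1 and 40.8, 47.2 and 35.7 under PKR siRNA 2. No pair of these 3 groups overlapped, and PKR siRNA 1 libraries varied most (SD 20.1, n = 3). Log2 fold changes were -0.61 (SE 0.15, adjusted p = 0.000593) under PKR siRNA 1 and -1.38 (SE 0.15, adjusted p = 1.81e-12) under PKR siRNA 2. With DMSO it had 74.8, 60.0 and 55.6, with 400 nM C16 61.7, 56.5 and 78.7 and with 800 nM 81.7, 86.5 and 77.3. The 800 nM libraries lay above every DMSO library. Their rise of 0.37 (SE 0.15, adjusted p = 0.0351) failed without the second (0.34) or the third (0.28) DMSO library or the first (0.37) or the second (0.33) treated library. EIF5A, the main gene, gave -0.08 (adjusted p = 0.26) and -0.19 (adjusted p = 0.00252) with the siRNAs and passed at neither dose of C16. Per kilobase, EIF5A2 stood at 3.67%, 3.61% and 3.51% of the level of EIF5A in the 3 control siRNA libraries and at 1.52%, 1.92% and 1.29% with PKR siRNA 2.

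EIF6 (chr20:35278906-35284816, minus strand), which binds the large ribosomal subunit and keeps it from joining early, fell with the siRNAs and rose with C16. Its normalized counts were 534, 511 and 524 under control siRNA, 409.9, 432 and 395 under PKR siRNA 1 and 293, 291 and 312 under PKR siRNA 2, 3 separate levels without overlap. The log2 fold changes were -0.34 (SE 0.07, adjusted p = 2.16e-05) and -0.81 (SE 0.07, adjusted p = 3.76e-17). In the C16 table it had 146, 158 and 150.0 with DMSO, 239, 293 and 271 with 400 nM and 261, 284 and 289 with 800 nM. All 6 C16 libraries lay above all 3 DMSO libraries, and the doses overlapped each other. EIF6 was the only member past 1.5-fold at 400 nM, with 0.82 (SE 0.09, adjusted p = 1.3e-10), and 800 nM gave 0.87 (SE 0.09, adjusted p = 6.72e-12). None of its calls against a control was lost with any library left out or under any other setting.

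**Figure D3:**
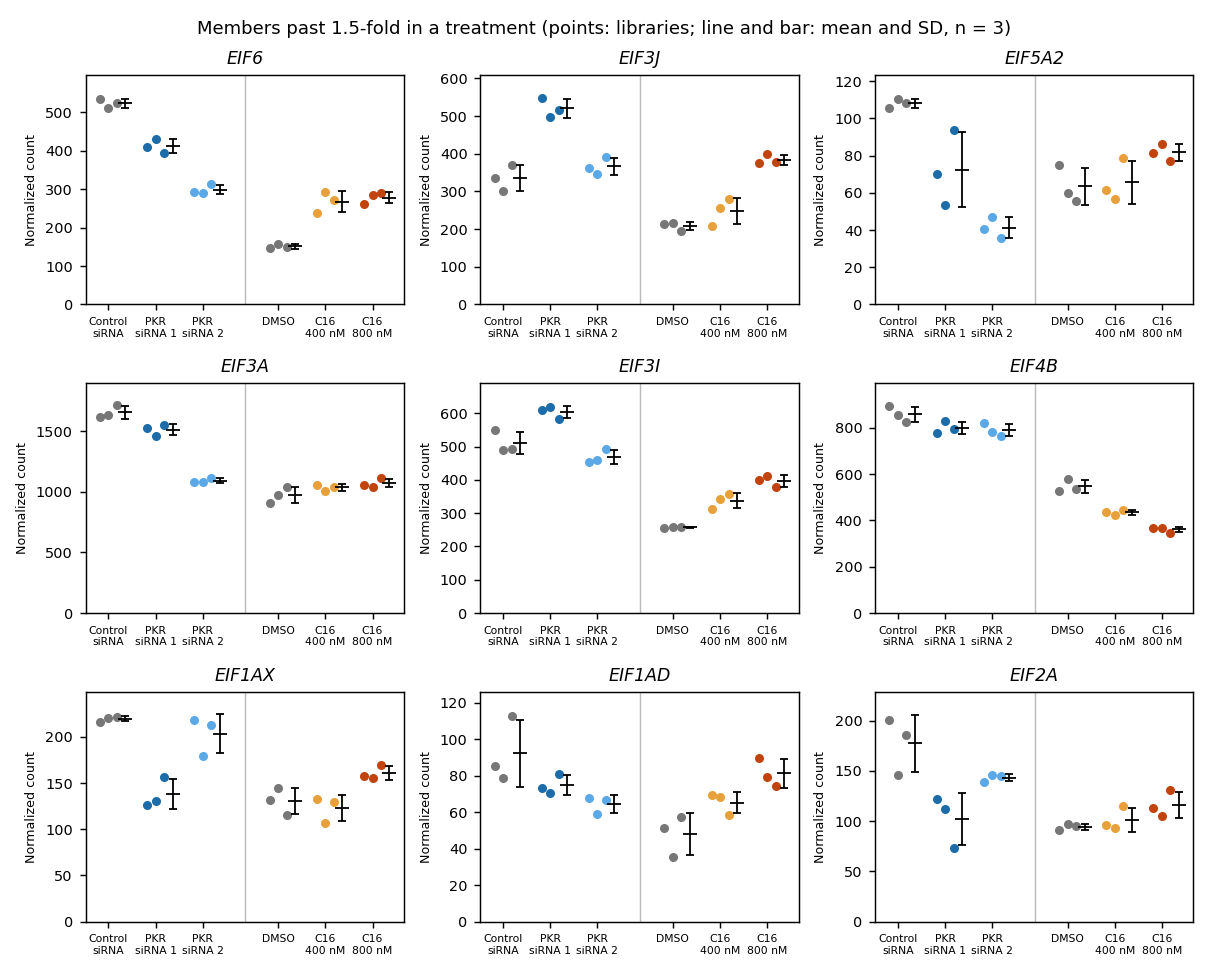
Normalized counts (vertical axes, from 0) in each library (points) with the mean and SD of 3 libraries, for the 9 members outside eIF2 and eIF2B that passed 1.5-fold in a comparison with a control, by group (horizontal axes); a grey line parts the separately normalized tables. EIF6 steps down from 523 to 299 across the siRNA groups and up from 151 to 278 across the C16 groups, and EIF4B steps down with C16.

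The 2 PKR siRNAs, aimed at the same mRNA, were also compared with each other. Against PKR siRNA 1, PKR siRNA 2 was higher for 9 members and lower for 17, where 27.7% of all genes were higher and 29.3% lower. Both thresholds were passed by 3 members, all lower with PKR siRNA 2, against 31.7% of all genes: EIF5A2 at -0.77 (SE 0.15, adjusted p = 1.14e-05), EIF2S1 at -0.65 (SE 0.10, adjusted p = 2.82e-08) and EIF2B2 at -0.63 (SE 0.15, adjusted p = 0.000176). Each of the 3 kept an adjusted p under 0.05 with any library left out but fell under 1.5-fold without some library, EIF5A2 without the third PKR siRNA 1 library (-0.57), EIF2S1 without the first PKR siRNA 2 library (-0.58), and EIF2B2 without the second (-0.57) or the third (-0.56) PKR siRNA 1 library or the second PKR siRNA 2 library (-0.56). EIF2S2 (-0.52, adjusted p = 3.58e-09), EIF2B3 (-0.54, adjusted p = 0.000718) and EIF2B5 (-0.48, adjusted p = 4.72e-05) were also lower with PKR siRNA 2, and EIF2B4 (0.42, adjusted p = 0.00184), EIF2A (0.51, adjusted p = 0.000143) and EIF1AX (0.56, adjusted p = 5.29e-07) higher. EIF4G1 (-0.07, 95% confidence interval -0.16 to 0.02), EIF4A2 (0.07, -0.07 to 0.21) and EIF2D (-0.14, -0.43 to 0.15) gave no difference past the threshold.

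Of the C16 doses, 800 nM was higher than 400 nM for 7 members and lower for 2, where 5.09% of all genes were higher and 9.18% lower. Both thresholds were passed by EIF3J, higher at 0.63 (SE 0.09, adjusted p = 3.74e-07), and by EIF1B, lower at -0.78 (SE 0.25, adjusted p = 0.0268), against 5.09% of all genes. EIF1B, a close relative of EIF1, was among the lowest members, with 28.7, 25.4 and 34.0 at 400 nM and 17.1, 11.0 and 23.9 at 800 nM. Its call failed without the first (-0.79) or the third (-0.67) 400 nM library or the second 800 nM library (-0.51), and with edgeR or DESeq2. EIF2S1 was higher at 800 nM by 0.39 (SE 0.11, adjusted p = 0.0127), a call lost without the first 400 nM library (0.27) or the second (0.34) or the third (0.37) 800 nM library, and with DESeq2. The group means of 21 members were in rising order from DMSO through 400 nM to 800 nM, those of 8 in falling order and those of 12 in neither, where 26.7% of the 9963 genes of the table were in rising and 28.7% in falling order. Without the first 400 nM library, 0 members passed both thresholds by limma (EIF3J then at 0.52), 4 were higher at an adjusted p under 0.05 and 1 was lower. For EIF6 the doses did not separate, with a difference of 0.06 (95% confidence interval -0.13 to 0.24).

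Summed over its members, each complex took a small share of all normalized counts of a library. The eIF2 subunits made up 0.0507% ± 0.00478 under control siRNA, 0.0669% ± 0.00348 under PKR siRNA 1 and 0.0491% ± 0.00101 under PKR siRNA 2 (SD, n = 3 each). With DMSO the share of eIF2 was 0.0608% ± 0.000493, with 400 nM C16 0.0679% ± 0.00176 and with 800 nM 0.074% ± 0.00206, and these 3 groups did not overlap. The eIF2B share was 0.0301% ± 0.00116 under control siRNA, 0.0341% ± 0.002 under PKR siRNA 1 and 0.0276% ± 0.000907 under PKR siRNA 2. PKR siRNA 1 lay above and PKR siRNA 2 under the controls, without overlap. With DMSO, 400 nM and 800 nM it was 0.0277% ± 0.00166, 0.0297% ± 0.001 and 0.0332% ± 0.000265. The 800 nM libraries lay above DMSO, and the 400 nM libraries overlapped it. For eIF3 the shares were 0.44% ± 0.0104, 0.459% ± 0.00833 and 0.393% ± 0.0115 in the siRNA groups and 0.435% ± 0.00764, 0.463% ± 0.00681 and 0.525% ± 0.00814 with DMSO, 400 nM and 800 nM. PKR siRNA 2 libraries lay under the controls and C16 libraries above DMSO for eIF3, again without overlap. The summed eIF3 counts were 7493.2 to 7806.8 under control siRNA and 6562.2 to 7048.8 under PKR siRNA 2. EIF3A alone averaged 1658.1 and 1091.4 in these groups, so much of the fall lay in 1 gene. With PKR siRNA 2, 3 of 12 subunits passed as lower and 0 as higher. The eIF4 share was 0.674% ± 0.00252 under control siRNA, 0.639% ± 0.0121 under PKR siRNA 1 and 0.58% ± 0.00656 under PKR siRNA 2, lower without overlap with each siRNA. With DMSO, 400 nM and 800 nM it was 0.569% ± 0.016, 0.605% ± 0.014 and 0.612% ± 0.0187, higher without overlap at each dose. EIF4G2 alone made up 47.1% to 53.8% of the eIF4 sum in the siRNA table and 49.1% to 52.1% in the C16 table. All 41 members together made up 1.43% ± 0.0208, 1.45% ± 0.0153 and 1.26% ± 0.0208 of the siRNA table's libraries and 1.29% ± 0.00577, 1.38% ± 0.0252 and 1.48% ± 0.0208 of the C16 table's. With 3 libraries against 3, an exact permutation test cannot go below p = 0.1 for such sums.

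**Figure D4:**
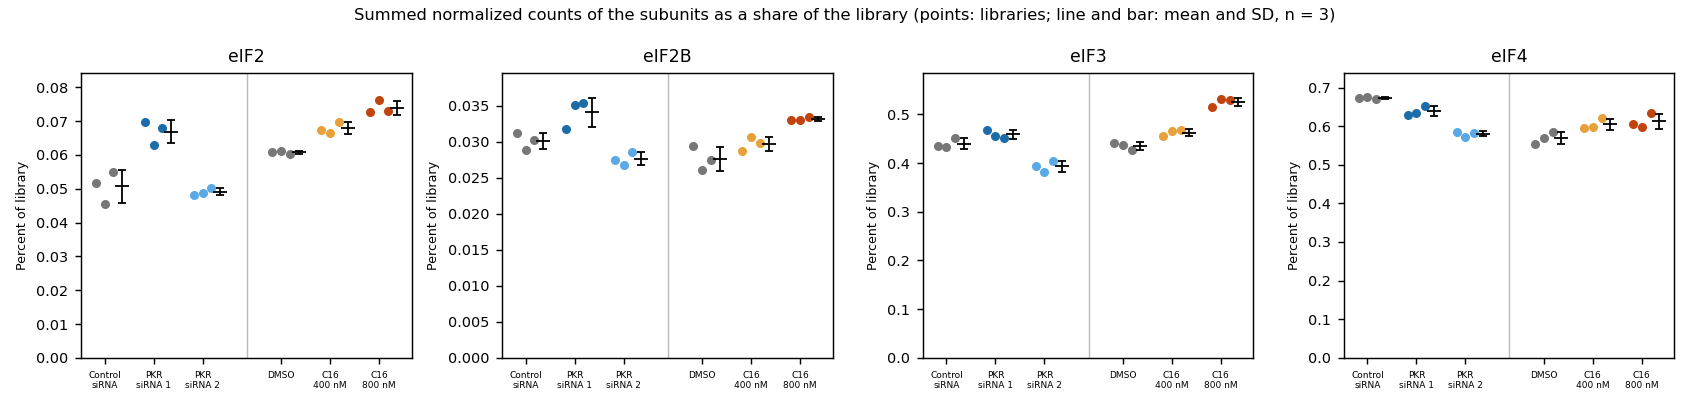
Summed normalized counts of the members of eIF2, eIF2B, eIF3 and eIF4 as a percent of the library (vertical axes, from 0), for each library (points) by group (horizontal axes), with the mean and SD of 3 libraries; a grey line parts the separately normalized tables. Within the siRNA table the eIF3 share is lowest with PKR siRNA 2 (0.393%), and within the C16 table it is highest with 800 nM (0.525%).

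The level filter left out 7 named genes. EIF4A1, the main eIF4A helicase gene, was listed at 0 in every library. Every base of its exons (100%) is shared on the same strand with the readthrough gene SENP3-EIF4A1, which itself reached at most 1.06 normalized counts. EIF3C and EIF3CL, near-identical copies annotated over each other's loci, were also listed at 0, with 43.6% and 50.0% of exon bases shared on the same strand. These zeros describe the deposited counts and not expression. EIF4E1B and EIF1AY were under the filter too, EIF4E3 had table means of 0.646 and 0.406, and EIF5AL1, a copy of EIF5A, 2.79 and 2.44.

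From a list of 40 genes around the initiation factors, outside the name rule, 38 were tested in both tables. PKR siRNA 1 raised 8 and lowered 7, PKR siRNA 2 raised 9 and lowered 15, 800 nM C16 raised 15 and lowered 10, and 400 nM raised 9 and lowered 6. As shares these were 21.1% and 18.4%, 23.7% and 39.5%, 39.5% and 26.3%, and 23.7% and 15.8%, where all genes gave 21.1% and 23.9%, 22.1% and 25.2%, 22.3% and 22.6%, and 14.6% and 11.9%. EIF4EBP1, a repressor that holds the cap-binding protein, had 43.1, 48.3 and 51.2 under control siRNA, 40.0, 43.5 and 35.7 under PKR siRNA 1 and 37.8, 26.8 and 25.4 under PKR siRNA 2, and 19.4 to 22.8 with DMSO, 34.0, 41.5 and 41.5 at 400 nM and 38.3, 42.7 and 24.8 at 800 nM. It fell with PKR siRNA 2 (-0.67, adjusted p = 0.00262), rose with 400 nM (0.88, adjusted p = 0.00141) and 800 nM C16 (0.70, adjusted p = 0.00602), and gave -0.25 (adjusted p = 0.287) under PKR siRNA 1. Its relative EIF4EBP2 fell with PKR siRNA 1 (-0.40, adjusted p = 0.000454) and PKR siRNA 2 (-0.93, adjusted p = 3.13e-13) and gave 0.05 and 0.19 with 400 and 800 nM C16.

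MKNK2, a kinase of the cap-binding protein, fell with PKR siRNA 1, -0.77 (adjusted p = 5.27e-16), and rose with PKR siRNA 2, 1.87 (adjusted p = 5.05e-38). PKR siRNA 1 also passed both thresholds for the ribosome rescue factor PELO (0.83), the termination factor GSPT2 (-0.81), BZW2 (0.66), a mimic of eIF5, and PAIP1 (-0.59), a partner of the poly(A)-binding protein. PKR siRNA 2 did so for PDCD4 (0.86), an inhibitor of eIF4A, for DENR (0.60), a recycling factor, and for the elongation factor EEF1A2 (-1.06). With 800 nM C16 these were BZW2 (0.94), EEF1A2 (0.70), PELO (0.66), EEF1A1 (-0.60), GSPT2 (-0.84), PAIP2 (-0.93), which restrains the poly(A)-binding protein, and DHPS (-1.11), the enzyme that begins the hypusine modification of eIF5A. At 400 nM EEF1A2 (0.77), PELO (0.63), PAIP2 (-0.66) and GSPT2 (-0.88) passed both.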

How the data were processed

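PANC-1 RNA was sequenced in 18 libraries of 6 groups, and the authors aligned the paired reads of the poly(A) libraries to hg38 with TopHat and counted them per gene with featureCounts (versions not given). The deposited values of the 2 tables, 9 libraries each, are counts normalized by TMM with TCC (a signal scaled for library size, with no length term), and a deposited column gives the exon length, used for levels per kilobase. Whole reads were recovered from them (100.0% of values within 0.01 of a whole number, 894145 to 1873906 reads per library), and 0 columns were left unassigned. The strand setting and annotation of the counting are not given in the sources used here.

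In each table, genes whose mean reached 10 normalized counts (10593 in the siRNA table, 9963 in the C16 table) were tested on log2(normalized count + 1) with limma 3.58.1 (R 4.3.3, moderated test with a mean-variance trend, 3 groups in 1 fit, two-sided). P-values were adjusted by Benjamini-Hochberg over all genes of the table, passed means an adjusted p under 0.05, and a second rule also asks for a fold change over 1.5. Fold changes refer to the log2(normalized count + 1) scale, which understates those of low genes. The study's own count test was replaced by limma because the deposited values are normalized. On simulated counts, 87 of 98 genes changed 2-fold and 77 of 100 changed 1.6-fold were recovered for PKR siRNA 1 (10581 genes), and 82 of 98 and 57 of 97 for 800 nM C16 (9968 genes). There were 9 false calls in each simulation. Each changed 200 genes, far fewer than passed in the data, and gave all genes the same dispersion, so these rates need not hold for the data.

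Members, pathway genes and tests were chosen with earlier results of these data known. Genes described in full were the eIF2 and eIF2B subunits and any other member past both thresholds in a comparison with a control. Pathway genes past both thresholds were named, and EIF4EBP1 and EIF4EBP2 whatever they did. EIF1, EIF1B, EIF2D, EIF4A2, EIF4E, EIF4G1, EIF4G3, EIF5A, EIF3B, EIF3E and EIF3K were added after their values were seen. The alternatives left out every library in turn, fitted the recovered reads with edgeR 4.0.16 and DESeq2 1.42.0, added the replicate number as a block, restricted the fit to the pair of groups in question, rescaled by median of ratios, dropped the level filter or raised it to 30, and set the pseudocount to 0.5 or 5. Replicates of every group differed by more than counting noise (chi-square per degree of freedom 1.03 to 1.627).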

Additional observations from a re-analysis of the deposited data

Results flagged for a closer look

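The PKR siRNAs differed from each other past both thresholds for 3 initiation factor genes, 7.32% of the members against 31.7% of all genes. PKR siRNA 2 was lower than PKR siRNA 1 by a log2 difference of -0.63 for EIF2B2, -0.65 for EIF2S1 and -0.77 for EIF5A2, each from the limma contrast between the siRNAs. With some library left out each fell under 1.5-fold, to -0.56, -0.58 and -0.57, at an adjusted p still under 0.05. For EIF2B2 and EIF2S1 the rise against control siRNA was seen with PKR siRNA 1, and for EIF5A2 both siRNAs were lower than control. EIF2AK2, the target, was at 9.65 to 13.6 normalized counts with PKR siRNA 1 and 7.96 to 9.40 with PKR siRNA 2, a difference of -0.31 (adjusted p = 0.282, limma). Whether these differences arise from sequences other than the target was not tested.

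The C16 doses differed past both thresholds for EIF1B (-0.78 at 800 nM relative to 400 nM) and EIF3J (0.63). This was 4.88% of the members, near the 5.09% of all genes. For EIF3J the 800 nM libraries lay above all others of the table and the adjusted p stayed under 0.05 with every library left out, but the difference fell under 1.5-fold without the first 400 nM library (0.52), whereas EIF1B was at 11.0 to 34.0 normalized counts in these libraries and its call was lost with any of 3 libraries left out.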

How the results depend on the processing

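Over the 41 members and 6 comparisons, 108 differences passed the test, of which 72 did so under every alternative tried, 36 were lost with some library left out, 27 with DESeq2 and 0 changed direction. Not every loss with DESeq2 is named with its gene above. With both pseudocounts, all 108 passed. The correlation of deviations between libraries of the same number was -0.0269 to 0.0324 in the siRNA table and -0.0491 to 0.0169 in the C16 table. Libraries of different numbers gave -0.0373 to 0.0289 and -0.0511 to 0.0503. With a spread near counting noise (chi-square per degree of freedom 1.03 to 1.627), these values cannot show whether the numbers pair the samples. The replicate block kept 108 of 108 calls, with 13 higher and 12 lower for PKR siRNA 1, 4 and 13 for PKR siRNA 2, 19 and 3 for 800 nM and 7 and 2 for 400 nM.

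With no filter on low genes, the percent of all genes passed was 25.9 for PKR siRNA 1 (13.8 past both thresholds), 27.8 for PKR siRNA 2, 35.0 between the siRNAs, 26.3 for 800 nM (16.9 past both), 14.1 for 400 nM (7.54 past both) and 6.91 between the doses (2.67 past both), since unexpressed genes then entered the count. DESeq2 passed 15.5% of genes at 400 nM and 5.25% between the doses (1.9% past both), called 4 members higher at 400 nM, and between the doses called 3 higher, 0 lower (2 at an unadjusted p under 0.05) and 1 past both thresholds. With no filter, with a minimum mean of 30 and with edgeR, 1 member was lower between the doses and 1 passed both thresholds, the cause of which was not tested except that the higher minimum leaves EIF1B out. EIF2B4 with PKR siRNA 2, at 0.00, became 0.02 with median-of-ratios rescaling, edgeR and DESeq2.

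With 1 library left out in turn, PKR siRNA 2 raised 2 to 6 members (2 without the second control library), 2 to 5 passed both thresholds between the siRNAs (5 without the first PKR siRNA 1 or the third PKR siRNA 2 library), 3 to 6 did so at 800 nM (3 without the second DMSO library) and 1 to 2 at 400 nM (2 without the third DMSO library). Between the doses 4 to 8 were higher, 1 to 2 lower and 0 to 3 past both thresholds, the lowest counts coming without the first 400 nM library. Some changes past both thresholds against a control fell under 1.5-fold without some library. With PKR siRNA 1 these were EIF2S2 (0.53), EIF3J (0.56) and EIF5A2 (-0.41). The others were EIF3A with PKR siRNA 2 (-0.58), and EIF1AD (0.57) and EIF4B (-0.56) at 800 nM. Changes that did not pass crossed 0 for EIF2B1 (-0.15 to 0.06) and EIF2S3 (-0.11 to 0.04) with PKR siRNA 1, EIF2B3 (-0.13 to 0.10) and EIF2B4 (-0.05 to 0.05) with PKR siRNA 2, EIF2S3 at 800 nM (-0.10 to 0.04), and EIF1AX (-0.17 to 0.01), EIF2S1 (-0.02 to 0.20), EIF2S3 (-0.08 to 0.06) and EIF5A2 (-0.09 to 0.17) at 400 nM. EIF1B was the only member with a table mean under 30 normalized counts (23.5 in the C16 table). Whether depth accounts for the lost calls was not tested.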
